A study of Homo sapiens with 12 samples.

Results

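The keratin genes are the rows of the deposited count table whose name is KRT, a number and at most 1 letter from A to C, which leaves out pseudogenes and keratin-associated proteins. There are 55 of them among 61209 rows, 29 coding for type I and 26 for type II keratins. After the filter on low counts, 15 of the 55 were tested, 8 of type I and 7 of type II, among 18526 tested genes. The family was chosen by name, but with results of these data known: many members near 0 counts with glucose, and KRT16 high in starved control cells. The response of control cells to starvation is therefore given for the keratins as a description, with no p, and nothing is read from how many members it called.

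RNA was sequenced from A375, an established human melanoma cell line, in 12 libraries of 4 groups with 3 libraries each. The groups were OGDH-depleted cells starved of glucose for 5 h, control cells starved of glucose for 5 h, OGDH-depleted cells that kept glucose (here glucose-fed), and glucose-fed control cells. OGDH codes for the catalytic E1 subunit of the mitochondrial complex that oxidises alpha-ketoglutarate in the citric acid cycle. The titles call the cells with less OGDH knockout cells and the series text calls them knockdown cells. How OGDH was depleted, what the controls carried and whether the cells are 1 clone is not given in the sources used. Nothing in the labels ties the replicates to separate cultures, so p-values measure the spread between these libraries, which may be technical. The totals were 21556273 to 25546615 counts per library. Levels are CPM, counts scaled to an effective library size made from library totals and TMM factors. OGDH itself averaged a log2 difference of -1.99 ± 0.10 (SE) between OGDH-depleted and control cells without glucose, and its 6 libraries labelled depleted, at 32.3 to 45.1 CPM, lay below its 6 control libraries, at 129 to 166 CPM.

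Keratins are the intermediate filament proteins of epithelial cells. A type I and a type II keratin assemble together as an obligate pair, and filaments anchor to desmosomes and hemidesmosomes. Epithelia are told apart by their pairs: KRT8 with KRT18 in simple epithelia, KRT5 with KRT14 in the basal layer of the epidermis, KRT1 with KRT10 above it, and KRT6 isoforms with KRT16 and KRT17 in wounded or hyperproliferative epidermis. Melanocytes and melanoma cells build their filaments chiefly from vimentin, and melanoma cells are known to express KRT8 and KRT18 in some cases.

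In these cells 3 libraries stood apart from the other libraries of their group: replicate 3 of the starved OGDH-depleted cells, replicate 3 of the starved control cells and replicate 2 of the glucose-fed control cells. Of the 15 keratins, 9 lay below both other replicates in the first of these, 12 lay above both in the second and 13 lay below both in the last. The share of all tested genes in these positions was not counted. Over all tested genes, a chi-square of counts divided by its degrees of freedom was 142 and 146 for replicate 3 of the starved control cells against the other replicates, and 6.9 between those. In starved OGDH-depleted cells it was 24 between replicates 1 and 2, 45.4 between 2 and 3 and 115 between 1 and 3. Replicate 2 thus lay between the others, and replicate 3 stood apart less clearly there. The share of counts on mitochondrial genes ran from 3.06% to 14.6% across the 12 libraries. It was 14.4% and 13.2% in replicates 1 and 2 of the starved control cells and 4.11% in replicate 3. In replicates 1, 2 and 3 of the starved OGDH-depleted cells it was 3.06%, 5.12% and 9.71%. Values without these 3 libraries are given where leaving them out changed a call or moved a called log2 difference by over 1.5 times. The part of the mitochondrial share in the results was not tested.

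Cell type markers were read beside the keratins. The melanoma markers SOX10, MITF, PAX3 and AXL were present in every library, SOX10 at 299 CPM or more, while TYR had 2 counts in all. MLANA reached at most 1.46 CPM and PMEL at most 1.56 CPM. Of the 15 keratinocyte markers, TP63 had 12 counts over the 12 libraries, KRT5 had 22, DSG3 12, DSG1 8 and KRT1 none. Others of the list were present, S100A2 at 43.6 to 150 CPM, KRT10 with 8909 counts, COL17A1 with 2115, KRT14 with 1317, SERPINB5 with 371 and DSC3 with 365. Of the simple epithelium markers, EPCAM had 29 counts, CDH1 9 and GRHL2 none, while CLDN4 had 8.94 to 31.6 CPM and ESRP2 253 counts. The summed level of the 15 keratinocyte markers was 96.3 to 162 CPM in starved OGDH-depleted, 118 to 206 in starved control, 119 to 147 in glucose-fed OGDH-depleted and 83.4 to 175 CPM in glucose-fed control libraries. For the 15 simple epithelium markers, which include KRT8, KRT18 and KRT19, it was 422 to 456, 817 to 922, 371 to 389 and 363 to 421 CPM in the same order of groups. The 7 fibroblast markers summed to 12.7 to 15.2 CPM in starved OGDH-depleted and 9.43 to 10.6 CPM in starved control libraries. Some markers moved with OGDH loss without glucose, in edgeR at an adjusted p under 0.05. Of all tested genes, 15% were lower and 13.7% higher in this comparison, and no marker list was tested as a set. Of 12 tested melanoma markers 3 were lower, NGFR (log2 -1.46), TYRP1 (-2.04) and SOX9 (-1.07), and 2 were higher, SOX10 (0.66) and S100B (1.27). Of 7 tested keratinocyte markers 3 were lower, IVL (-2.52), SERPINB5 (-1.56) and KRT14, and DSC3 was higher (1.54). Of 4 tested simple epithelium markers KRT18 alone was called, and of 5 fibroblast markers PDGFRB was higher (0.92). The part of other cell types in the keratin results was not tested.

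The level of the family was carried by few members. Per kilobase of exon, the hair keratin KRT81 made up 68.6% of the summed keratin level in starved OGDH-depleted cells, 53.2% in starved control cells, 71.3% in glucose-fed OGDH-depleted cells and 64.5% in glucose-fed control cells. KRT18 gave 15.5%, 26.8%, 11.8% and 15.5% in the same order of groups, and KRT80 gave 11% to 14%. KRT80 stood above KRT18 in glucose-fed OGDH-depleted cells, at 12.4%, and below it in the other groups. All type I keratins together stood at 138 ± 5.74 CPM per kilobase in starved OGDH-depleted cells, 276 ± 9.42 in starved control cells, 116 ± 3.41 in glucose-fed OGDH-depleted cells and 115 ± 2.37 in glucose-fed control cells (SD, n = 3). The type II sum was 621 ± 170 in starved OGDH-depleted cells, 628 ± 222 in starved control cells, 703 ± 51.1 in glucose-fed OGDH-depleted cells and 508 ± 169 CPM per kilobase in glucose-fed control cells. The type I sum was thus highest in starved control cells by more than the spread of the libraries, and the type II sums overlapped. Each sum was mostly 1 gene, so neither describes its class as a whole. In the same order of groups KRT18 alone stood at 117, 242, 96.4 and 96.5 CPM per kilobase of the type I sum. KRT81 stood at 520, 480, 584 and 402 CPM per kilobase of the type II sum.

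**Figure D1:**
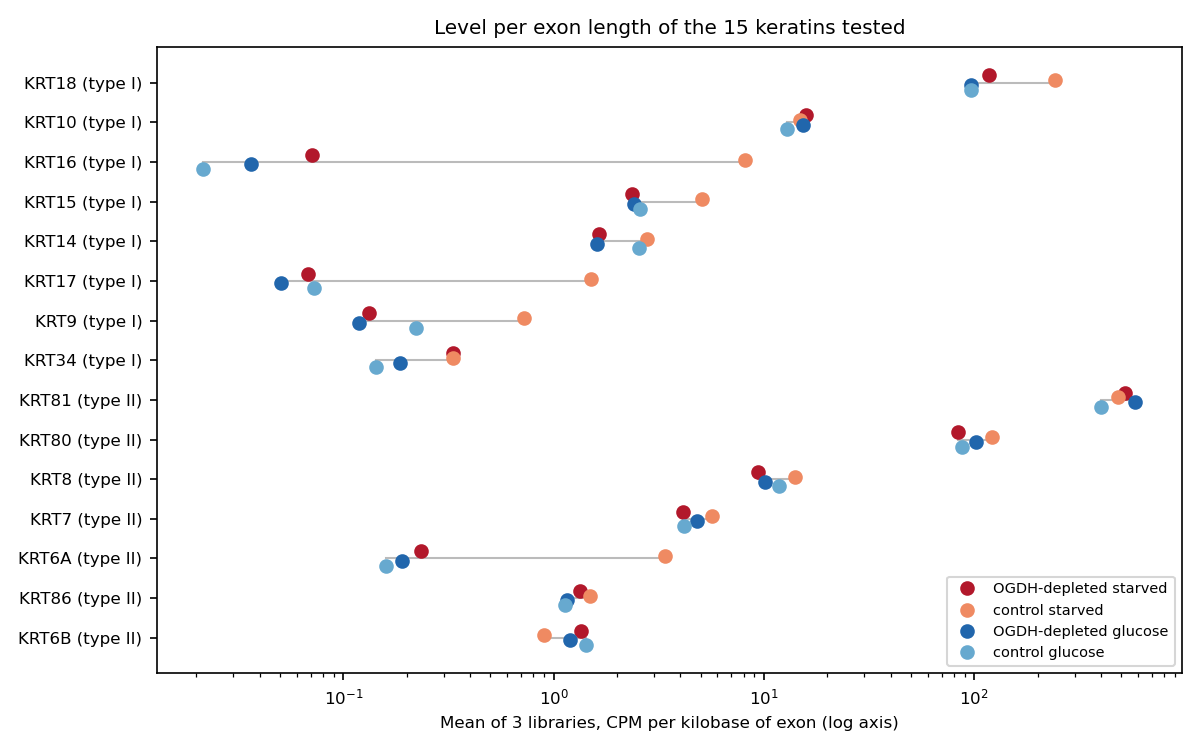
Mean level of each of the 15 tested keratins in the 4 groups, in CPM per kilobase of exon on a log axis, with 1 point per group and type I genes above type II genes. KRT81 and KRT18 lie at the right, at 480 and 242 CPM per kilobase in starved control cells, while KRT16 spans the widest range, with 8.09 CPM per kilobase in starved control cells.

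Without glucose, OGDH-depleted cells had less of 8 keratins than control cells and more of 1. The 8 were KRT16, KRT17, KRT6A, KRT9, KRT15, KRT18, KRT14 and KRT80, and the 1 was KRT6B. Lower calls were made for 15% of all tested genes and higher calls for 13.7%, at an adjusted p of 0.05 in edgeR's quasi-likelihood test with Benjamini-Hochberg adjustment over all tested genes. The median log2 difference of the 15 was -0.58, beside 0.00420 for all tested genes. The starved control libraries of this comparison are those in which KRT16 was seen to be high when the family was proposed, and KRT16 and KRT17 passed the low-count filter only through them, so this count and median support nothing about the family as a whole. Values of KRT16 and KRT17 against starved control cells are a description, with no p. The adjusted p-values given below for other keratins in this comparison rest on the same starved control libraries. They place single genes among all tested genes and are no independent support for the family. In these bulk samples fewer cells expressing a keratin and less RNA per cell cannot be told apart.

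The wound keratins KRT16, KRT17 and KRT6A had the largest log2 differences of the 15. KRT16, the type I partner of KRT6 proteins in injured epidermis, had 0.310, 0.0833 and 0.137 CPM in starved OGDH-depleted cells, 17, 15.3 and 27.9 CPM in starved control cells, 0.0400, 0.0442 and 0.187 CPM in glucose-fed OGDH-depleted cells, and 0.119, 0 and 0.0419 CPM in glucose-fed control cells. Only the 3 starved control libraries held it above 0.310 CPM, and the other 9 libraries overlapped. In counts this was 13 fragments over the 3 starved OGDH-depleted libraries and 1249 over the 3 starved control libraries. Without glucose KRT16 was 108-fold lower in OGDH-depleted cells, with a log2 difference of -6.76 ± 0.46 (SE). The ratio of summed counts, starved control over starved OGDH-depleted cells at equal library size, was 114.5 (95% interval 66.7 to 216, counting error only).

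KRT17, which is made in the same wounded epithelia and binds 14-3-3 sigma in mouse keratinocytes, had 0.271, 0.25 and 0.0912 CPM in starved OGDH-depleted cells, 3.70, 3.01 and 6.82 CPM in starved control cells, 0.160, 0.221 and 0.0747 CPM in glucose-fed OGDH-depleted cells, and 0.317, 0.0865 and 0.251 CPM in glucose-fed control cells. As for KRT16, the starved control libraries lay above all other 9. It was 21.3-fold lower in OGDH-depleted cells without glucose (log2 -4.41 ± 0.46). Of the 100-base windows of the longest transcripts, 7.18% for KRT16 and 0.288% for KRT17 also occur in another gene. An unnamed gene on the opposite strand overlaps 10.2% of the exon bases of KRT17, where counting without strand cannot tell them apart.

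KRT6A, the type II member of this set, had 0.582, 0.833 and 0.638 CPM in starved OGDH-depleted cells, 9.93, 8.60 and 11.3 CPM in starved control cells, 0.440, 0.707 and 0.523 CPM in glucose-fed OGDH-depleted cells, and 0.396, 0.216 and 0.795 CPM in glucose-fed control cells. Its 3 starved control libraries differed little from each other and exceeded the other 9 libraries. KRT6A was 14.5-fold lower in OGDH-depleted cells without glucose (log2 -3.85 ± 0.30, edgeR adjusted p = 4.8e-06). This p rests on the starved control libraries known when the family was proposed, so it is no independent support for the family.

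KRT6B, its near copy 40.5 kb away on chromosome 12, went the other way. It had 3.1, 3 and 3.19 CPM in starved OGDH-depleted cells, 1.96, 2.10 and 2.15 CPM in starved control cells, 2.52, 2.69 and 3.06 CPM in glucose-fed OGDH-depleted cells, and 3.29, 3.85 and 2.68 CPM in glucose-fed control cells. The starved control libraries were the 3 lowest of the 12. KRT6B was higher in OGDH-depleted cells without glucose by a log2 difference of 0.58 ± 0.16 (edgeR adjusted p = 0.0195), a call that was lost without the low-count filter and without replicate 1 or replicate 2 of the starved control cells. KRT6C, the remaining KRT6 gene, had 23 counts in all and was not tested. Of the 100-base windows of the longest KRT6A transcript, 18.2% also occur in another gene, and 24.6% of those of KRT6B, mostly in KRT6C or in each other. Fragments from such stretches map to several places and were left out by the authors, so the levels of the KRT6 genes are uncertain to that extent.

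**Figure D2:**
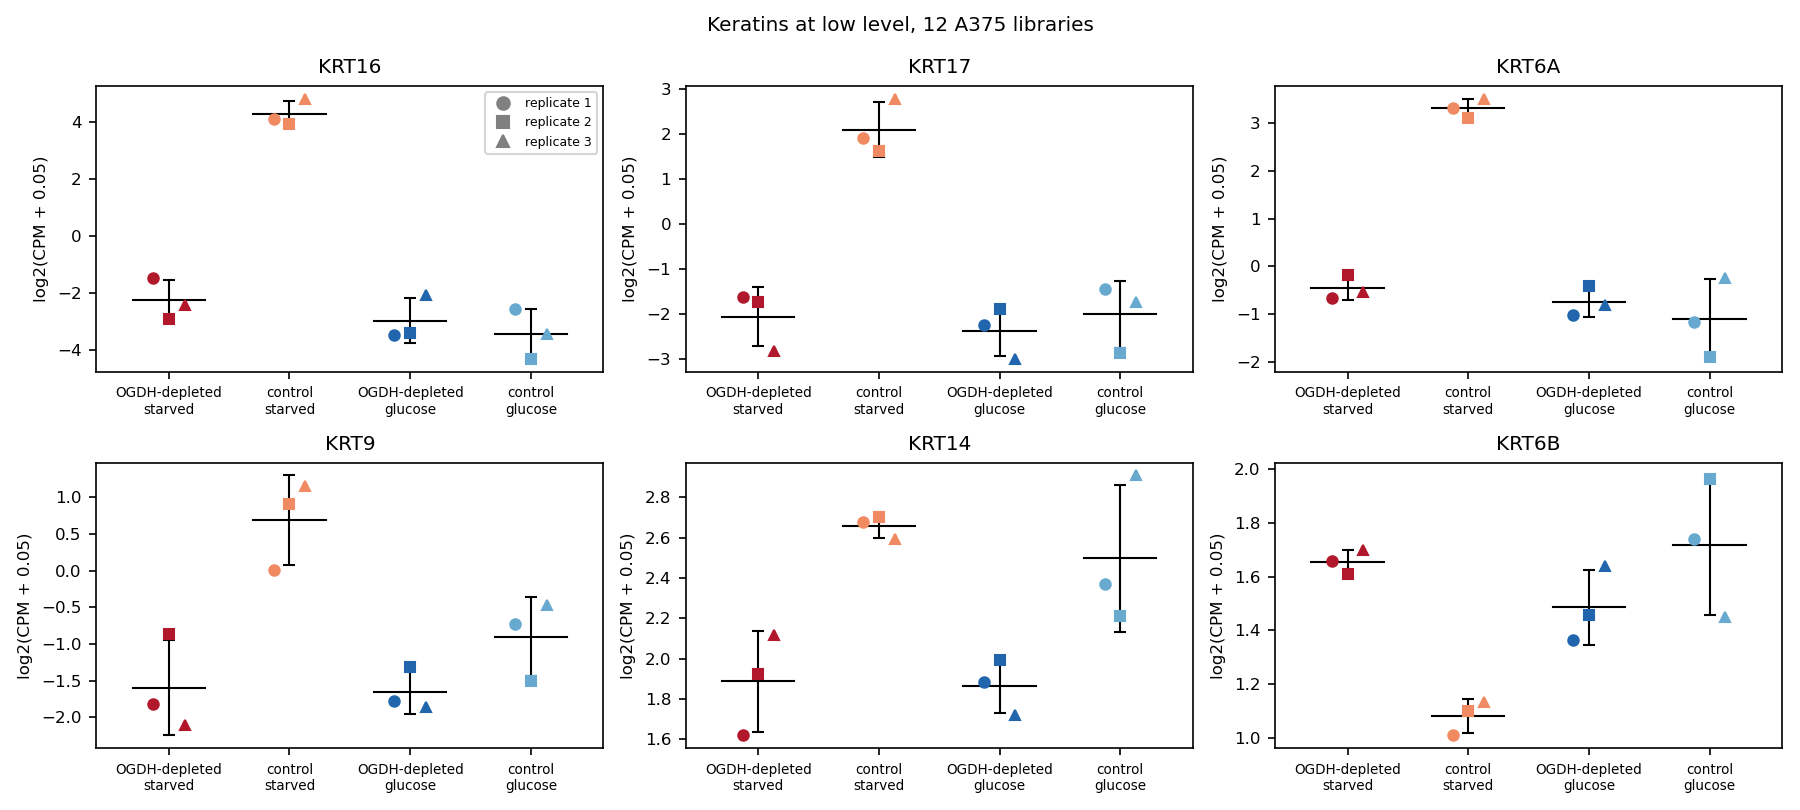
Level of 6 keratins in each of the 12 libraries, as log2(CPM + 0.05), with 1 panel per gene. Symbols mark the replicates, and the black line and bar give the mean and SD of a group. KRT16, KRT17, KRT6A and KRT9 stand above all other libraries in the 3 starved control libraries, and KRT6B stands below them there.

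In the simple epithelial pair the partners differed in their spread. KRT18, the type I partner, had 336, 381 and 363 CPM in starved OGDH-depleted cells, 722, 759 and 748 CPM in starved control cells, 289, 310 and 288 CPM in glucose-fed OGDH-depleted cells, and 294, 298 and 297 CPM in glucose-fed control cells. The starved control libraries lay close together and far above the other 9. Without glucose KRT18 was 2.06-fold lower in OGDH-depleted cells (log2 -1.04 ± 0.08, edgeR adjusted p = 4.8e-06).

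KRT8, its type II partner, had 84.7, 60.3 and 49.0 CPM in starved OGDH-depleted cells, 78.4, 72.3 and 139 CPM in starved control cells, 68.2, 65.2 and 75.0 CPM in glucose-fed OGDH-depleted cells, and 101.3, 50.7 and 91.0 CPM in glucose-fed control cells. Its groups overlapped, and replicate 3 of the starved control cells was its highest library. The log2 difference without glucose was -0.58 (95% interval -1.24 to 0.08), and the edgeR adjusted p of 0.177 did not pass. It was -0.078 with the 3 libraries that stood apart left out. Per kilobase of exon KRT18 stood at 117 CPM and KRT8 at 9.40 CPM in starved OGDH-depleted cells, against 242 and 14.1 CPM in starved control cells. The 2 genes lie head to head on chromosome 12 and share 525 exon bases on opposite strands, which is 17.1% of the exon bases of KRT18 and 7.63% of those of KRT8. Counting ignored strand and dropped fragments that overlap 2 genes.

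KRT7, a type II keratin of glandular and ductal epithelia, had 22.1, 14.5 and 13 CPM in starved OGDH-depleted cells, 19.5, 17.7 and 30.8 CPM in starved control cells, 17.7, 18.4 and 21.2 CPM in glucose-fed OGDH-depleted cells, and 21.6, 10.4 and 17.7 CPM in glucose-fed control cells. Its groups overlapped too, its antisense gene KRT7-AS overlaps it, and it was not called in any of the 5 comparisons.

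Of the basal keratins, KRT15, found in basal cells and in the stem cells of the hair follicle, had 17.4, 14.5 and 10.5 CPM in starved OGDH-depleted cells, 26.5, 26.3 and 38.0 CPM in starved control cells, 13, 15.9 and 14.2 CPM in glucose-fed OGDH-depleted cells, and 16.8, 11.4 and 17.7 CPM in glucose-fed control cells. Again the starved control libraries were the 3 highest. KRT15 was 2.14-fold lower in OGDH-depleted cells without glucose (log2 -1.10 ± 0.22, edgeR adjusted p = 0.00325), and its log2 difference was -0.75 with the 3 libraries that stood apart left out, still past the threshold.

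KRT14, the type I keratin of basal keratinocytes, had 3.02, 3.75 and 4.29 CPM in starved OGDH-depleted cells, 6.34, 6.45 and 5.97 CPM in starved control cells, 3.64, 3.93 and 3.25 CPM in glucose-fed OGDH-depleted cells, and 5.11, 4.59 and 7.45 CPM in glucose-fed control cells. Every OGDH-depleted library lay below every control library, with glucose and without. Without glucose KRT14 was 1.70-fold lower in OGDH-depleted cells (log2 -0.76 ± 0.19, edgeR adjusted p = 0.0119), while KRT5, its type II partner, was not tested.

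Among the suprabasal keratins KRT9, the type I keratin of the skin of palms and soles, had 0.233, 0.5 and 0.182 CPM in starved OGDH-depleted cells, 0.954, 1.83 and 2.19 CPM in starved control cells, 0.240, 0.353 and 0.224 CPM in glucose-fed OGDH-depleted cells, and 0.555, 0.303 and 0.670 CPM in glucose-fed control cells. It was 5.39-fold lower in OGDH-depleted cells without glucose (log2 -2.43 ± 0.42, edgeR adjusted p = 0.00127), on 22 counts over the starved OGDH-depleted libraries and 103 over the starved control libraries. KRT10, the type I keratin of the spinous layer, had 37.6, 30.6 and 34.8 CPM in starved OGDH-depleted cells, 32.2, 26.4 and 37.2 CPM in starved control cells, 31.7, 30.8 and 36.6 CPM in glucose-fed OGDH-depleted cells, and 34.1, 23.7 and 25.6 CPM in glucose-fed control cells. Its groups overlapped, and the 95% interval of its log2 difference without glucose ran from -0.26 to 0.46.

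The promoters of these 2 genes of the type I cluster are shown since they are the called and the uncalled suprabasal keratin with an entry in the RefSeq promoter table, which held 34 of the 55 keratins and 4 of the 15 tested. Each line gives the 250 bases before the start of the gene, 5′ to 3′ on its own minus strand in GRCh38.p14, at chr17:41572060-41572309 for KRT9 and chr17:40822615-40822864 for KRT10. Capitals mark a TATAAA match.
KRT9: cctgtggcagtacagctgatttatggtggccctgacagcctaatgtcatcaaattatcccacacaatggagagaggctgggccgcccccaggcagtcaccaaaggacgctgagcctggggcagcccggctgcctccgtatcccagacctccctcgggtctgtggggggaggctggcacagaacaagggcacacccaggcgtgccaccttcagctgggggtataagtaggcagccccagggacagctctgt
KRT10: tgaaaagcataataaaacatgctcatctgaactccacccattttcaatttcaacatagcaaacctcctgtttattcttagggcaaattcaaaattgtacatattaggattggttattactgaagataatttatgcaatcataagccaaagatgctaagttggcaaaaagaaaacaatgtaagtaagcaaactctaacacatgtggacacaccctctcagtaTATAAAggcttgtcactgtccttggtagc
The windows were searched on both strands, with overlaps allowed, for the TATA box TATAAA, the AP-1 motif TGANTCA and 2 patterns of the heat shock element. The first of these patterns is GAANNTTC. The second pattern is TTCNNGAA. KRT10 holds the TATA box, whose first base lies 29 bases before the start, and no other of these motifs, and KRT9 holds none of the 4. Only exact matches were marked. The KRT9 window holds TATAAG, which differs from the TATA box in its last base, shortly before the start. Over 35116 promoters of this length, 10.7% hold the TATA box, 6.57% the AP-1 motif, 5.78% the first heat shock pattern and 6.62% the second.

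KRT80, a type II keratin found near desmosomes in many epithelia, had 413, 382 and 303 CPM in starved OGDH-depleted cells, 473, 471 and 646 CPM in starved control cells, 436, 444 and 449 CPM in glucose-fed OGDH-depleted cells, and 422, 299.9 and 418 CPM in glucose-fed control cells. It was lower in OGDH-depleted cells without glucose by 1.45-fold (log2 -0.54 ± 0.17, edgeR adjusted p = 0.0341). This difference was -0.27 with the 3 libraries that stood apart left out, still past the threshold (edgeR adjusted p = 0.0057). The call was lost without replicate 2 or 3 of the starved OGDH-depleted cells and without replicate 3 of the starved control cells. It was also lost when any of the glucose-fed OGDH-depleted libraries was left out, and when the compared groups were fitted alone.

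The hair keratins held the highest single level. KRT81, a type II keratin of the hair cortex, had 1334, 920 and 756 CPM in starved OGDH-depleted cells, 816, 624 and 1339 CPM in starved control cells, 1159, 1018 and 1202 CPM in glucose-fed OGDH-depleted cells, and 1013, 458 and 856 CPM in glucose-fed control cells. Its spread within groups was as large as that between them, and it was called in none of the 5 comparisons. With the 3 libraries that stood apart left out, KRT81 was higher in OGDH-depleted cells without glucose (log2 0.62, edgeR adjusted p = 0.00962). KRT86, a hair keratin that shares 28.0% of its 100-base windows with other genes, chiefly KRT81, had 3.41, 3.25 and 3.01 CPM in starved OGDH-depleted cells, 3.82, 2.90 and 4.17 CPM in starved control cells, 2.96, 2.83 and 2.65 CPM in glucose-fed OGDH-depleted cells, and 2.77, 2.34 and 3.10 CPM in glucose-fed control cells. KRT81 shares 30.3% of its windows in the same way, so part of the fragments of either gene was not counted. KRT34, the last tested hair keratin, stayed between 0.132 and 0.833 CPM in all 12 libraries and was called in none of the comparisons, as was KRT86.

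**Figure D3:**
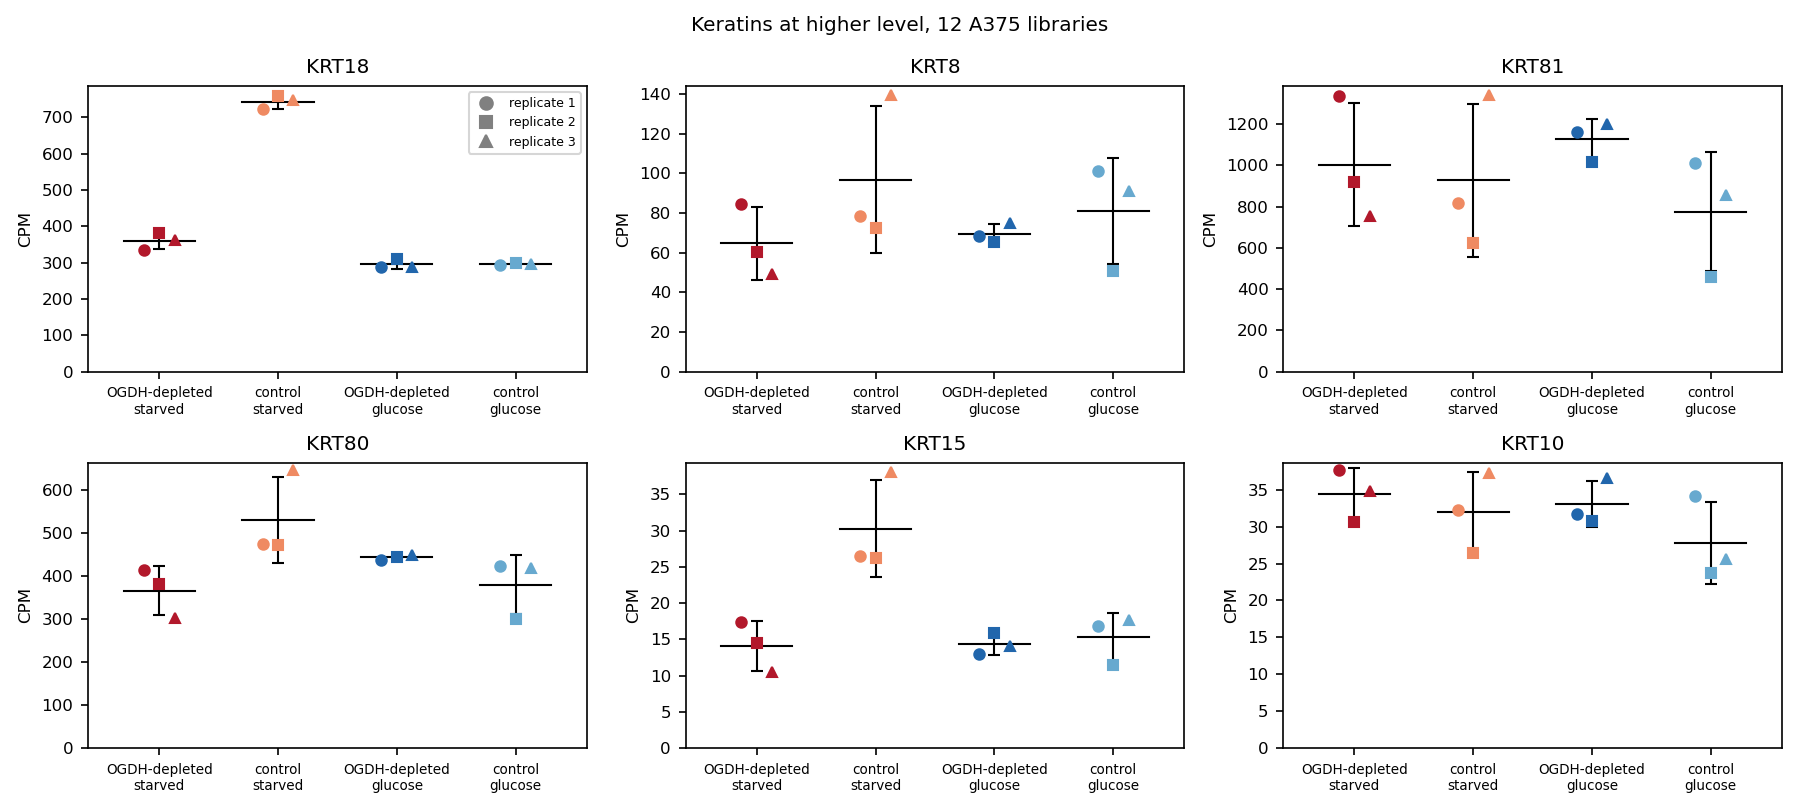
Level in CPM, on axes from 0, of 6 keratins in each of the 12 libraries. Symbols mark the replicates, and the black line and bar give the mean and SD of a group. The 3 starved control libraries of KRT18 lie close together at 722 to 759 CPM, whereas those of KRT81 spread from 624 to 1339 CPM.

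The 40 keratins that were not tested were near or at 0. Of these, 17 had no count in any library, 22 had between 1 and 9 counts in their highest library, and KRT85 reached 12 counts in 1 library of glucose-fed control cells. By class, 4 of 5 wound, 3 of 6 simple epithelial and 2 of 3 basal keratins were tested. Of the others, 3 of 14 suprabasal and cornifying, 3 of 17 hair and nail and none of 8 inner root sheath keratins were tested. Of all 61209 genes, 18526 were tested. The wound count includes KRT16 and KRT17, the 2 keratins that passed the low-count filter only through the starved control libraries. It thus partly restates the high KRT16 known when the family was proposed, and nothing is read from it. A count of 0 in a library allows up to 3 counts there, and 1 count was worth 0.0373 to 0.0561 CPM.

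Starvation of OGDH-depleted cells moved none of the 15 keratins past the threshold. The edgeR test made 0 higher and 0 lower calls among them, beside 2.42% and 4.76% of all tested genes. At such shares few calls would fall among 15 genes, so having none is not a result about keratins. At an unadjusted p under 0.05 the edgeR test had 1 keratin higher and none lower. DESeq2 called 1, KRT18. The fitted log2 difference of KRT18 was 0.28 ± 0.08, with 336 to 381 CPM in starved and 288 to 310 CPM in glucose-fed OGDH-depleted cells, and the edgeR adjusted p was 0.0605. KRT18 passed in edgeR when replicate 2 of the glucose-fed control cells was left out and when all 3 libraries that stood apart were. For KRT16 the log2 difference was 0.91 with a 95% interval of -0.91 to 2.73, on 13 counts in starved and 7 counts in glucose-fed OGDH-depleted libraries. The interval was -0.50 to 1.11 for KRT6A and -1.07 to 2.01 for KRT17.

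Starvation of control cells, given as a description, had 7 of the 15 keratins called higher and 1 called lower, beside 17% and 17.5% of all tested genes. The log2 differences of the 7 were 8.37 ± 0.54 for KRT16, 4.39 ± 0.32 for KRT6A, 4.33 ± 0.45 for KRT17, 1.70 ± 0.39 for KRT9, 1.33 ± 0.08 for KRT18, 0.98 ± 0.22 for KRT15 and 0.48 ± 0.17 for KRT80. That of KRT6B was -0.66 ± 0.16. KRT16 had only 4 counts over the 3 glucose-fed control libraries, so that its ratio of 374.7 at equal library size has a 95% interval of 146 to 1377 from counting error alone, and its fitted difference depends on the prior count. In each of these 7 the starved control libraries lay above all other 9 libraries of the series, and for KRT6B below them. The share of all tested genes that separate in this way was not counted, so nothing is read from this number. The call of KRT80 was lost in 15 of 21 other settings, and its log2 difference was 0.16 with the 3 libraries that stood apart left out. That of KRT15 was 0.61 with the same libraries left out. KRT8 had a log2 difference of 0.26 ± 0.30, which was -0.36 without those libraries.

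With glucose, loss of OGDH moved no keratin past the threshold. The edgeR test made 0 higher and 0 lower calls, beside 1.59% and 1.45% of all tested genes, which is too few to set the keratins apart. It had 1 keratin, KRT14, lower at an unadjusted p under 0.05. KRT14 stood at a log2 difference of -0.67 ± 0.19 with an edgeR adjusted p of 0.103. DESeq2 called KRT14, and edgeR called KRT14 (-0.81) and KRT8 (-0.48) once the 3 libraries that stood apart were left out. KRT18 had a log2 difference of -0.0023 within a 95% interval of -0.18 to 0.18.

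The response to starvation itself differed between OGDH-depleted and control cells for 6 keratins, 5 with a lower and 1 with a higher log2 response in OGDH-depleted cells. Such lower and higher calls were made for 8.95% and 8.3% of all tested genes. The starvation response of control cells, itself given as a description, enters each of these differences. All 6 are therefore a description, with no p. The difference of the log2 responses was -7.46 ± 1.36 for KRT16 and -3.86 ± 0.93 for KRT17. It was -4.09 ± 0.50 for KRT6A, -1.04 ± 0.12 for KRT18 and -1.01 ± 0.31 for KRT15. For KRT6B it was 0.82 ± 0.22. KRT16 was not called without replicate 3, and KRT17 not without replicate 2, of the glucose-fed OGDH-depleted cells. The calls of KRT15 and KRT6B were lost in 14 and 8 of 20 other settings. With the 3 libraries that stood apart left out the difference was -0.48 for KRT15 and -2.75 for KRT17, and KRT80 was called as well, at -0.34. For KRT14 the difference was -0.10 ± 0.27, as its level was lower in OGDH-depleted cells with and without glucose.

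**Figure D4:**
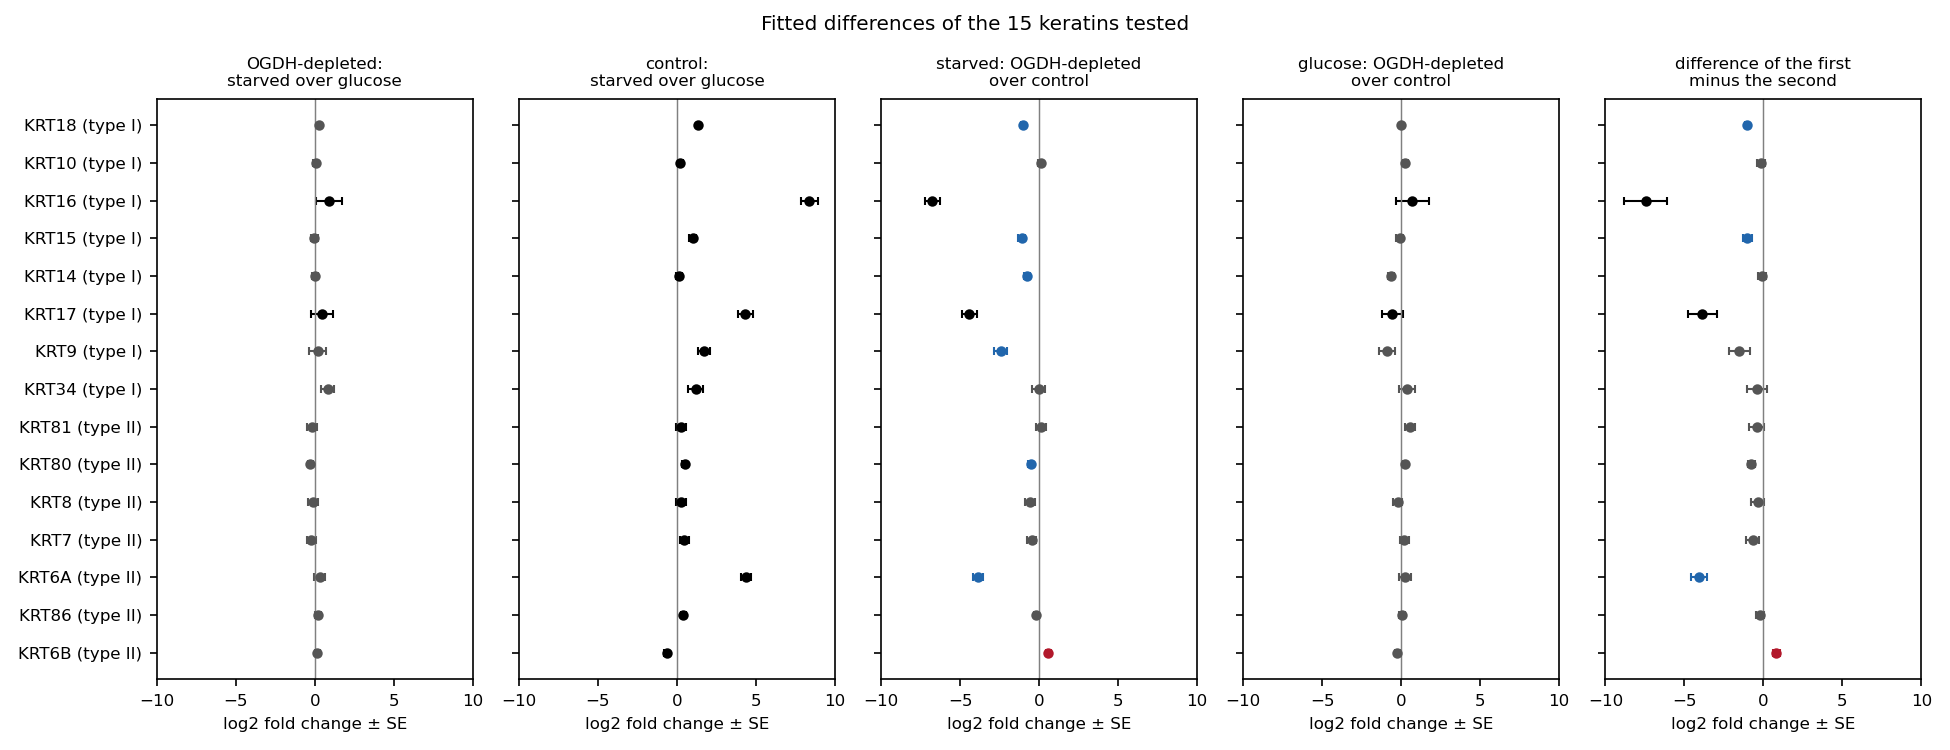
Fitted log2 fold change with its SE for each of the 15 tested keratins in the 5 comparisons, with type I genes above type II genes. Blue and red points passed the edgeR threshold downwards and upwards and grey points did not. Black points, which are the starvation response of control cells and all values of KRT16 and KRT17, are a description. The difference of responses is a description too, whatever the colour of its points. KRT16, KRT17 and KRT6A lie farthest from 0 in the starvation response of control cells, in OGDH loss without glucose and in the difference of responses.

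Of the 6 type I keratins called without glucose, 5 are neighbours on the minus strand of chromosome 17. KRT15, KRT9 and KRT14 have their lower coordinate 96.0, 43.9 and 27.5 kb before that of KRT16, and KRT17 has it 9.66 kb after. KRT19, between KRT15 and KRT9, had 14 counts in all and was not tested. KRT16 spans 41609778 to 41615899 and KRT17 spans 41619442 to 41624842 in the coordinates of the hg38 table. Within 250 kb of KRT16, 8 tested genes are not keratins. Of these 1, KLHL11, was lower in OGDH-depleted cells without glucose (log2 -0.71), 1, P3H4, was higher (0.71), and 6 did not pass, among them EIF1 the nearest tested gene beyond KRT17 (-0.56, edgeR adjusted p = 0.0527). On chromosome 12, 3 tested genes within 250 kb of KRT6A are not keratin genes of the family, and none of them passed. All 15 tested keratins had a higher GC share in their longest transcript, 52.0% to 62.9%, than the median of 47.9% over the 15166 tested genes with a GENCODE 29 transcript.

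Genes that work with keratins were counted from lists, whose members were put together with earlier results known. Without glucose, OGDH-depleted cells had 15% of all tested genes lower and 13.7% higher, which stands beside each count below, and no list was tested as a set. Of 10 tested genes of the cornified envelope, the barrier that keratinocytes build as they die, 5 were lower and none higher in OGDH-depleted cells without glucose. SPRR2D, a small proline-rich envelope protein, averaged 18.2 ± 5.50 CPM in starved OGDH-depleted cells and 217 ± 59.0 CPM in starved control cells (SD, n = 3 each), with a log2 difference of -3.58 ± 0.25 and an edgeR adjusted p of 2.1e-06. SPRR2A averaged 0.931 and 4.11 CPM, and SPRR2B 0.0420 and 1.41 CPM, in the same groups, and both were lower in OGDH-depleted cells. The SPRR2 genes are near copies of each other, so their separate counts are uncertain. FLG and HRNR, which aggregate keratin filaments in epidermis or resemble the protein that does, were not called. None of the 10 moved with OGDH loss in glucose, and 3 had a smaller response to starvation in OGDH-depleted cells.

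Of the 14 tested keratin partners and regulators, 2 were lower without glucose and none higher, a share of lower calls near that of all tested genes. SFN, which codes for 14-3-3 sigma, averaged 13.6 ± 0.69 CPM in starved OGDH-depleted cells and 63.5 ± 5.96 CPM in starved control cells (log2 -2.22 ± 0.13, edgeR adjusted p = 6.1e-07). AHNAK, a large scaffold protein, averaged 441 and 932 CPM. With glucose it averaged 892 CPM in OGDH-depleted and 828 CPM in control cells. Starvation lowered AHNAK in OGDH-depleted cells (log2 -1.02 ± 0.21, edgeR adjusted p = 0.0156), and it was not called for starvation of control cells (log2 0.17 ± 0.21). YWHAZ, YWHAG and YWHAB, which code for other 14-3-3 proteins, were not called.

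Among 15 tested desmosome proteins and keratin linkers, 3 were lower and 2 higher in OGDH-depleted cells without glucose, both near the shares over all tested genes. The 3 were PLEC, which codes for plectin (log2 -1.58 ± 0.24, edgeR adjusted p = 0.000484), DSP, which codes for desmoplakin, the protein that ties keratin filaments to desmosomes (-1.32 ± 0.17, 0.000145), and PKP2 (-0.67 ± 0.16, 0.00796). DSP averaged 36.9 ± 5.78 CPM in starved OGDH-depleted cells, 92.4 ± 10.3 in starved control cells, 32.3 ± 1.29 in glucose-fed OGDH-depleted cells and 31.7 ± 7.18 CPM in glucose-fed control cells. DSG2 and DST were not called.

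Of 12 other intermediate filament genes tested, 3 were lower and 4 higher in OGDH-depleted cells without glucose. LMNB1, which codes for the nuclear lamin B1, averaged 137 ± 0.81 CPM in starved OGDH-depleted cells and 55.3 ± 0.54 CPM in starved control cells (log2 1.31 ± 0.08, edgeR adjusted p = 5.7e-07), NES, which codes for nestin, averaged 229.96 and 129 CPM, and IFFO1 averaged 35.6 and 21.7 CPM. VIM, which codes for vimentin, averaged 1346 ± 147 CPM in starved OGDH-depleted cells and 1535 ± 221 CPM in starved control cells and was not called, nor was LMNA.

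Of 10 tested epithelial transcription factors, 4 were lower and 3 higher in OGDH-depleted cells without glucose. KLF4, a factor of epidermal barrier formation, averaged 27.9 ± 2.12 CPM in starved OGDH-depleted cells and 72.4 ± 6.27 CPM in starved control cells (log2 -1.37 ± 0.10, edgeR adjusted p = 3.4e-06). KLF5 averaged 434 ± 206 and 1161 ± 575 CPM, a call close to the threshold (log2 -1.42 ± 0.49, edgeR adjusted p = 0.0481). TFAP2C was higher at 125 against 58.5 CPM. KLF4 was also higher in starved than in glucose-fed OGDH-depleted cells (log2 0.59 ± 0.10, edgeR adjusted p = 0.00599).

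Keratin pseudogenes and keratin-associated proteins complete the neighbouring names. Of 137 pseudogene rows 17 were tested, of which 6 were lower and none higher in OGDH-depleted cells without glucose. The most abundant, KRT8P12, averaged 17.2 and 14.8 CPM in starved OGDH-depleted and starved control cells and was not called, nor was KRT18P11, at 9.15 and 17.3 CPM. KRT8P3 was lower at 5.61 and 9.73 CPM. KRT18P10 averaged 4.12 ± 0.43 CPM in starved OGDH-depleted cells and 7.17 ± 0.45 CPM in starved control cells, KRT18P16 averaged 0.751 and 1.56 CPM, and KRT18P39 averaged 1.80 and 3.96 CPM, and all 3 were lower in OGDH-depleted cells. Whether fragments of KRT18 are among these counts was not tested. Of 112 rows of keratin-associated proteins, 78 had no count in any library and 1, KRTAP2-3, was tested. It averaged 1.63 ± 0.44 CPM in starved OGDH-depleted cells and 0.665 ± 0.25 CPM in starved control cells and was higher in the first (log2 1.31 ± 0.37, edgeR adjusted p = 0.0194).

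The same lists were counted in the other comparisons, each beside the share over all tested genes. Starvation of OGDH-depleted cells, with 2.42% of all tested genes higher and 4.76% lower, had 3 of the 10 transcription factors higher, 1 linker, 1 other intermediate filament gene and 1 regulator lower, and none of the 10 envelope genes or 17 pseudogenes called. OGDH loss with glucose, with 1.59% of all tested genes higher and 1.45% lower, had 2 transcription factors, 1 regulator and KRTAP2-3 higher, and 1 linker and 1 other intermediate filament gene, LMNB1, lower. Starvation of control cells, with 17% of all tested genes higher and 17.5% lower, had 4 envelope genes, 2 regulators, 7 pseudogenes and KRTAP2-3 higher and no gene of these lists lower. In it 4 transcription factors were higher and 1 lower, 4 linkers higher and 2 lower, and 2 other intermediate filament genes higher and 7 lower. The response to starvation was lower in OGDH-depleted than in control cells for 8.95% of all tested genes and higher for 8.3%. It was lower for 3 envelope genes, 3 regulators, 2 linkers and 2 transcription factors. It was higher for 3 other intermediate filament genes, 2 linkers and 2 transcription factors.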

How the data were processed

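The authors deposited 1 table of raw counts. Per the file headers, featureCounts 2.0.1 counted read pairs over the exons of each gene name, ignored strand, and dropped pairs with several map positions or several overlapping genes. The submitters' processing notes name Subread and hg38. No source used here gives the RNA selection, the trimming or the aligner. The table also gives the exon length used for levels per kilobase. Groups and replicate numbers come from the sample titles.

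From these counts, genes were kept by filterByExpr (minimum count 10, minimum total 15), which left 18526 of 61209 genes with 99.87% of the counts. A model with 1 mean per group over all 12 libraries was fitted with TMM factors and the quasi-likelihood test of edgeR 4.0.16 in R 4.3.3, and tested on simulated data. P-values were adjusted by Benjamini-Hochberg over all tested genes, with a threshold of 0.05. The members and lists were chosen with earlier results of these data known. Tested keratins with a highest group mean of at least 1 CPM are given in every library. Companion lists are given by counts and by the 3 genes of highest mean and the 3 of smallest adjusted p for OGDH loss without glucose. A gene that this rule names is not reported here. DESeq2 1.42.0, other scaling, other filters, a replicate block, the compared groups alone, leaving out each library, leaving out the 3 libraries that stand apart, and leaving out mitochondrial genes were the alternatives. Shared windows and GC share used GENCODE 29 transcripts, and promoters came from RefSeq on GRCh38.p14.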

Additional observations from a re-analysis of the deposited data

Results flagged for a closer look

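The starvation responses of OGDH-depleted and control cells differed past the threshold for 6 keratins. All 6 are a description and no test, since the starvation response of control cells enters each of them. KRT16 and KRT17 also passed the low-count filter only through the starved control libraries, and KRT16 was known to be high there when the family was proposed. The difference of log2 responses, OGDH-depleted minus control, was -7.46 for KRT16, -4.09 for KRT6A, -3.86 for KRT17, -1.04 for KRT18 and -1.01 for KRT15, and it was 0.82 for KRT6B. In KRT16 and KRT17 the 9 libraries other than the starved control ones held at most 0.310 and 0.317 CPM, so the size of these values depends on the few counts in them.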

How the results depend on the processing

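Of 1542 values from 75 fitted keratin differences under 21 alternatives, 50 lost a call and 14 gained one. None of the 475 values of differences called as reported changed sign. Of the 1067 values of differences not called there, 58 changed sign, and 57 of these were not called under the alternative either. The remaining one was KRT8 in starvation of control cells, at -0.36 with the 3 libraries that stand apart left out, and the cause was not tested. The 15 keratins gave 1 call instead of 0 for starvation of OGDH-depleted cells with DESeq2 and with those 3 libraries left out, and 0 to 1 when any single library was left out. For OGDH loss with glucose they gave 1 call with DESeq2 and 2 with the 3 libraries left out, instead of 0. For the difference of responses the calls ran from 3 to 7 when single libraries were left out, beside 6, with 3 without replicate 2 of the glucose-fed OGDH-depleted cells. Over all genes the calls without the 3 libraries were 11364 beside 6400 for starvation of control cells, 3313 beside 1330 for starvation of OGDH-depleted cells, 2021 beside 563 for OGDH loss with glucose, 9874 beside 5310 without it, and 8077 beside 3196 for the difference of responses.

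Whether the same replicate numbers pair the samples is not given by the labels. Correlations of deviations between same-numbered libraries ran from -0.69 to 0.59. They cannot decide it, since the deviations of the 3 libraries of a group sum to 0. With the number as a replicate block, 7, 0, 0, 8 and 4 keratins were called, first for starvation in control and in OGDH-depleted cells, then for OGDH loss in glucose and in its absence, and last for the difference of responses. Among the alternatives, the median log2 difference of all genes was largest in size at -0.0855, with upper-quartile factors for starvation of control cells. It was -0.0228 for that comparison in the fit reported above. Depth limits the 40 untested keratins and KRT34, KRT16 and KRT17 outside starved control cells, where single counts set the value.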
